A study of Mus musculus with 15 samples.

Results

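Actins are the proteins of the thin filament and of the cytoskeleton. The 6 mouse actin genes Acta1, Acta2, Actc1, Actg2, Actb and Actg1 were followed across cardiomyocytes that had received 1 of 3 gene transfer vectors. The members are the rows of the count table that carry these symbols, 6 of 23337 genes. All 6 had counts and 5 passed the filter on low counts. Actg2 did not pass it and was not tested.

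The vectors were adeno-associated viruses (AAV), which carry a gene into the cells of a living animal. All mice in the 3 groups were Rosa-Cas9GFP mice, so the controls also carried Cas9 and GFP, and all were injected at P1 (postnatal day 1). The vector was AAV-GFP in the control group (called GFP here), AAV-ATF4-2A-GFP in the second group (ATF4) or AAV-DDIT3-2A-GFP in the third (DDIT3), with 5 libraries in each group. The labels do not name the promoter of the vectors or the sex of the mice. Hearts were taken at 4 weeks of age, cardiomyocytes were released by Langendorff perfusion and purified by fluorescence-activated cell sorting, and polyA RNA was sequenced. ATF4 is a bZIP protein that switches on amino acid supply genes when translation is restrained, and DDIT3 (CHOP) is its partner and target under endoplasmic reticulum stress.

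Mammals make a set of actins that are nearly alike as proteins but are used in different cells. Actc1 encodes cardiac α-actin, the main actin of the heart's thin filaments, and Acta1 encodes skeletal α-actin, which the rodent heart makes around birth and replaces as it matures. Acta1 is a classical member of the fetal gene programme that returns in overloaded or diseased ventricle. Acta2 encodes the α-actin and Actg2 the γ-actin of smooth muscle, while Actb and Actg1 encode the β- and γ-actin of the cytoskeleton of every cell. Serum response factor (SRF) is a shared regulator. It binds the CArG box of actin promoters with its partners myocardin and the MRTF proteins, which sense the pool of free actin monomer.

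The vectors' own genes bore out the labels. Atf4 measured 351 to 538 CPM (counts scaled to the library's effective size) in the ATF4 libraries and 43.6 to 101 CPM in the other 10, and Ddit3 measured 664 to 1073 CPM in the DDIT3 libraries and 13.4 to 38.5 CPM elsewhere. The GFP libraries held 6680988 to 7963333 counts, the ATF4 libraries 6217744 to 7514376 and the DDIT3 libraries 7268663 to 8317249. The actins together took 1.82 ± 0.253% (SD, n = 5) of the reads counted for GFP, 1.93 ± 0.594% for ATF4 and 1.95 ± 0.470% for DDIT3. Replicate 2 of ATF4 and replicate 2 of DDIT3 stood apart from the rest on the second principal component (11.4% of the variance), at -40.6 and -35.2. By Xist and Y-linked transcripts 11 libraries were male and 4 female, namely GFP replicates 4 and 5, ATF4 replicate 2 and DDIT3 replicate 2.

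The actin messages are near copies over their coding part, and the following stretch is shown because it carries the difference by which reads of the 2 striated isoforms can be assigned. These are the first 90 coding bases, 5′ to 3′ on the sense strand, from the GENCODE M21 transcripts, and capitals mark the 14 positions at which they differ.
Acta1: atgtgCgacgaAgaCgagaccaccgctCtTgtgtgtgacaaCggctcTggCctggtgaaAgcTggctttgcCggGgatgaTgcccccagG
Actc1: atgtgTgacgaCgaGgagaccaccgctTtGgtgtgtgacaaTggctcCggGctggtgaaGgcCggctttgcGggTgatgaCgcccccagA
Over the whole coding sequence of 1134 bases Acta1 and Actc1 differed at 157 positions (86.2% identical), and their longest identical run was 29 bases. Of the 50-base words of a transcript, 2.22% of those of Acta1 and none of those of Actc1 were also found in a transcript of another gene. For Acta2 the share was 0.352%, for Actb 14.2% and for Actg1 56.7%, most of which (51.1%) lay in the processed pseudogene Gm12715. The Actg1 level is therefore uncertain, since the handling of reads with several matches is not given in the sources used here. Acta1 overlaps Gm20388, and Actc1 overlaps A530058N18Rik, both on the opposite strand, and the kit does not mark strand, so reads of these neighbours cannot be told from actin reads.

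All 6 genes lie on the minus strand of GRCm38 (mm10). Acta1 spans chr8:123891758-123894775, Actc1 chr2:114047282-114052875, Acta2 chr19:34240336-34255585, Actg2 chr6:83512909-83536251, Actb chr5:142903115-142907976 and Actg1 chr11:120345687-120348495.

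In control cardiomyocytes actin transcripts were almost wholly of the cardiac isoform. Levels of different genes are compared as CPM per kilobase of the deposited gene length. On this scale Actc1 stood at 13018 ± 1622 in GFP (SD, n = 5) and made up 96.0 ± 0.452% of the actin total, and it ranked between 1 and 3 of all genes in every one of the 15 libraries. Acta2 followed at 259 ± 111, Acta1 at 141 ± 41.6, Actb at 114 ± 26.4 and Actg1 at 29.5 ± 12.4 CPM per kilobase. The ranges of Acta2 and Acta1 overlapped in GFP, as did those of Acta1 and Actb, so these neighbours in the order were not separated beyond their spread. Actb and Actg1 did not overlap (80.8 to 149 against 12.2 to 40.7). This gap is as uncertain as the Actg1 level, since 56.7% of the 50-base words of Actg1 and 14.2% of those of Actb are shared.

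With ATF4 the order below Actc1 changed. Acta1 came second at 773 ± 303 CPM per kilobase, ahead of Acta2 at 217 ± 147, Actb at 143 ± 47.4 and Actg1 at 35.9 ± 19.4. Group ranges of Acta1 and Acta2 overlapped (290 to 1128 against 22.4 to 374), but within each ATF4 library Acta1 was above Acta2, by a ratio of 2.18 to 13.0. In GFP the ratio of Acta1 to Acta2 was 0.226 to 0.905, below 1 in every library. With DDIT3 the order was Acta2 (257 ± 159), Actb (97.0 ± 42.4), Acta1 (87.3 ± 27.8) and Actg1 (31.7 ± 13.4), with overlapping ranges for Acta2, Actb and Acta1.

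**Figure D1:**
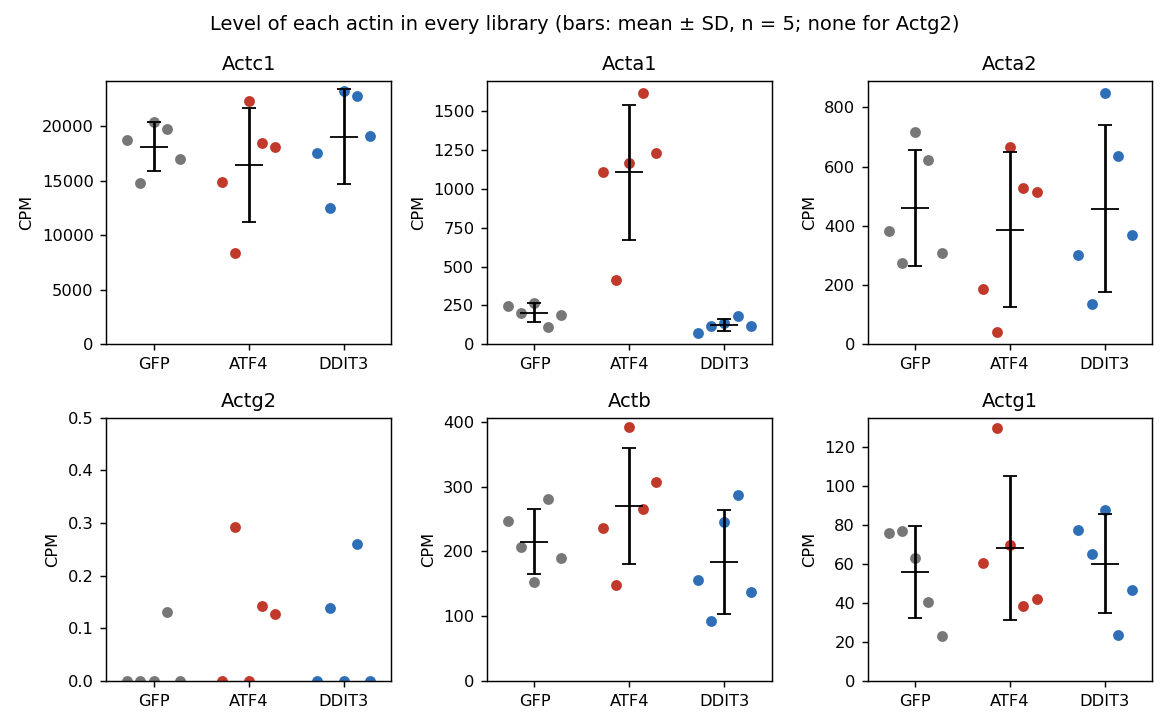
CPM (vertical axes, linear from 0) of each actin in every library by vector group; points are libraries in order of replicate number, and bars are the mean ± SD of 5 libraries except for Actg2, which had 0 to 2 counts per library. Acta1 in the ATF4 group lies above every other library, from 416 to 1617 CPM, while the groups of the other actins overlap.

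Skeletal α-actin, Acta1, was higher with ATF4 than in either other group. Its level in the GFP libraries was 249, 201, 264, 113 and 186 CPM (replicates 1 to 5). In the ATF4 libraries it was 1106, 416, 1167, 1617 and 1231 CPM. All 5 ATF4 libraries lay above all GFP libraries, and the lowest, replicate 2, stood well below the other 4. The mean rose from 203 ± 59.6 to 1107 ± 435 CPM, a log2 fold change of 2.45 ± 0.32 (SE; 5.47-fold; 95% interval 1.77 to 3.13; edgeR quasi-likelihood test, adjusted p = 2.6e-05). Acta1 was the 1 actin called of 5 tested, where 32.2% of the 11814 tested genes were called in this comparison at an adjusted p below 0.05 (16.5% higher and 15.6% lower) and 21.4% had groups that did not overlap. In the authors' deposited table the value was 2.43 ± 0.289 (SE) with an adjusted p of 2.3e-15. Without ATF4 replicate 2 the log2 fold change was 2.66 ± 0.25 (adjusted p = 6.5e-07), and in male libraries alone it was 2.43 ± 0.25 (adjusted p = 1.0e-05).

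Acta1 did not rise with DDIT3. It measured 73.8, 116, 134, 184 and 117 CPM in the DDIT3 libraries, overlapping GFP, with 4 of 5 libraries below the GFP library of the same number. The log2 fold change against GFP was -0.70 ± 0.31 (SE; 95% interval -1.35 to -0.04), which did not pass edgeR's test (adjusted p = 0.470). Of all genes 0.863% were called in this comparison (0.525% higher and 0.339% lower) and 2.86% had groups that did not overlap, while Acta1 was among the 9.71% with an unadjusted p below 0.05. In male libraries alone it was -0.90 ± 0.23 (adjusted p = 0.126), and in the authors' deposited table -0.70 ± 0.246 (SE) with an adjusted p of 0.149. Set directly against DDIT3, ATF4 libraries held 8.85-fold more Acta1 (log2 3.15 ± 0.33, SE; edgeR adjusted p = 2.3e-06), and the groups did not overlap. Of all tested genes 33.8% were called in that comparison, 17.8% as higher with ATF4 and 16% as lower, and 22.6% did not overlap.

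Even after this rise Acta1 remained a minor striated actin. As a share of Acta1 plus Actc1, counted per length, it was 1.27, 1.30, 1.24, 0.554 and 1.06% in the GFP libraries. In the ATF4 libraries it was 6.73, 4.58, 4.83, 7.84 and 6.21%, and with DDIT3 it was 0.407, 0.892, 0.557, 0.780 and 0.591%. Every ATF4 library was above every other library, and GFP and DDIT3 overlapped through GFP replicate 4. The group means were 1.08 ± 0.312% for GFP, 6.04 ± 1.35% for ATF4 and 0.645 ± 0.191% for DDIT3. ATF4 replicate 2, low in Acta1 as a level, was at 4.58% close to replicate 3 as a share, because its Actc1 was low as well. The sum of Acta1 and Actc1 was 13159 ± 1627 CPM per kilobase in GFP, 12583 ± 3987 in ATF4 and 13767 ± 3157 in DDIT3. Among all genes of a library, Acta1 ranked between 46 and 1289 by level per length.

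**Figure D2:**
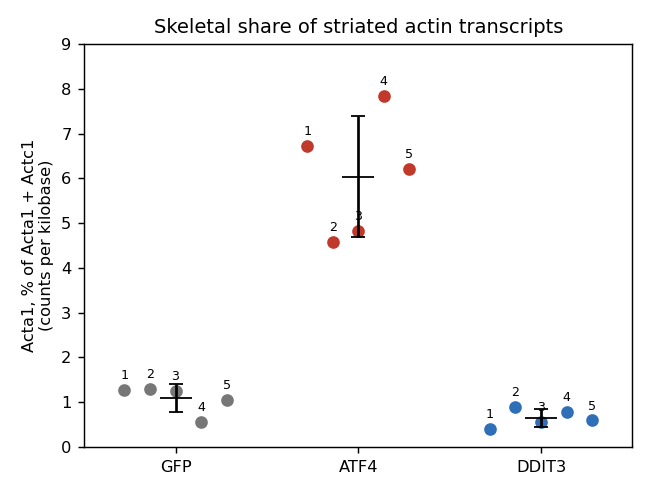
Acta1 as a percentage of Acta1 plus Actc1, counted per kilobase of gene length (vertical axis, from 0), in each library; numbers are replicate numbers and bars the mean ± SD of 5 libraries. ATF4 libraries lie between 4.58 and 7.84%, all above the highest GFP library at 1.30%.

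Cardiac α-actin, Actc1, carried most of the actin in every library and was called in no comparison. It measured 18681, 14784, 20373, 19687 and 16950 CPM in GFP and 14866, 8401, 22324, 18444 and 18045 CPM in ATF4. In DDIT3 it measured 17529, 12496, 23199, 22759 and 19093 CPM. Replicate 2 was the lowest library of each group, and the ranges of the 3 groups overlapped. The log2 fold change was -0.14 ± 0.21 (SE) in ATF4 against GFP (edgeR adjusted p = 0.639, 95% interval -0.58 to 0.30), and its sign turned to 0.02 without ATF4 replicate 2. It was 0.07 ± 0.21 in DDIT3 against GFP (adjusted p = 0.963, interval -0.36 to 0.51) and -0.21 ± 0.21 in ATF4 against DDIT3 (adjusted p = 0.464, interval -0.65 to 0.22). In all 5 pairs the ATF4 library lay below the DDIT3 library of the same number. With the replicate number as a block in the fit, ATF4 against DDIT3 was -0.24 ± 0.11 (SE, edgeR adjusted p = 0.0876). ATF4 against GFP was then -0.20 ± 0.11 (adjusted p = 0.149).

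**Figure D3:**
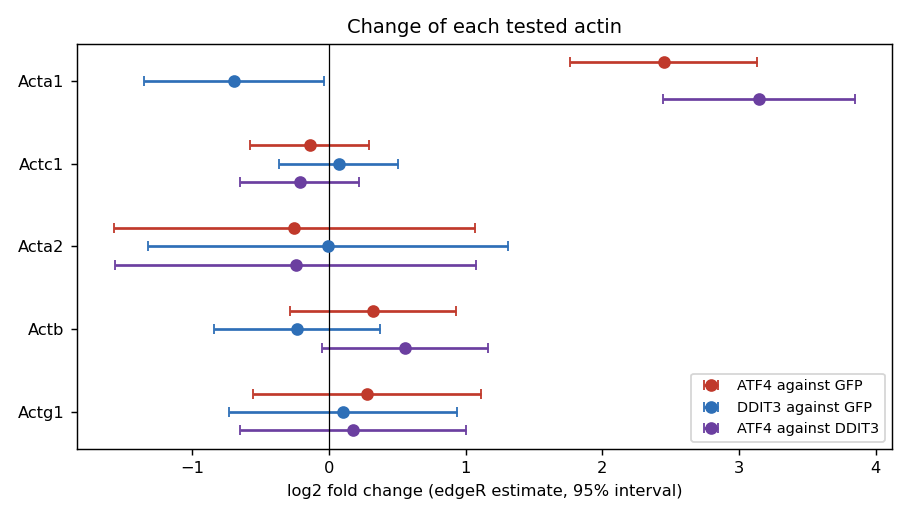
Log2 fold change (horizontal axis) of the 5 tested actins in each of the 3 comparisons, as edgeR estimates with 95% intervals. Acta1 stands clear of 0 in both comparisons that involve ATF4 (2.45 and 3.15), the interval of Acta1 in DDIT3 against GFP (-1.35 to -0.04) is not adjusted for the number of genes tested, and all other intervals include 0.

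Acta2, the smooth muscle α-actin that fetal cardiomyocytes also make, varied more among libraries of 1 group than between groups. It measured 382, 275, 717, 621 and 309 CPM in GFP, 186, 39.9, 666, 529 and 514 CPM in ATF4, and 302, 137, 849, 636 and 367 CPM in DDIT3. Replicate 3 was the highest and replicate 2 the lowest in each group. The log2 fold changes were -0.25 ± 0.61 (SE; ATF4 against GFP, edgeR adjusted p = 0.790), -0.01 ± 0.61 (DDIT3 against GFP, adjusted p = 0.999) and -0.24 ± 0.61 (ATF4 against DDIT3, adjusted p = 0.794). This fit ignores the replicate number. Its 95% intervals reach from -1.57 to 1.07 in ATF4 against GFP and from -1.32 to 1.31 in DDIT3 against GFP. A log2 change of 1 in either direction lies within both of these. With the replicate number as a block in the fit, the errors were smaller. ATF4 against GFP was then -0.61 ± 0.40 (SE, edgeR adjusted p = 0.255). DDIT3 against GFP was -0.24 ± 0.39 (adjusted p = 0.830) and ATF4 against DDIT3 -0.37 ± 0.39 (adjusted p = 0.476).

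Acta2 is often read as a marker of smooth muscle cells, so its level was set beside other genes of that lineage. Smooth muscle myosin Myh11 averaged 7.80 CPM in GFP, transgelin (Tagln) 2.61 CPM and calponin (Cnn1) 0.188 CPM, against 461 CPM of Acta2. Per kilobase, Acta2 in GFP was 259, Myh11 1.18 and Tagln 1.64. The smoothelin gene Smtn stood at 119 and the pericyte receptor Pdgfrb at 9.48 CPM per kilobase. The 14 smooth muscle and pericyte markers, Acta2 not among them, summed to 959 to 1212 CPM in GFP, 980 to 1195 CPM in ATF4 and 859 to 1124 CPM in DDIT3, and most of this was Abcc9 (473 CPM in GFP) and Smtn (404 CPM), which cardiomyocytes express as well. Of the 12 markers tested in ATF4 against GFP, 6 rose and 1 fell, where over all tested genes 16.5% rose and 15.6% fell. Their median log2 fold change was 0.67, beside 0.02 over all genes. Cspg4 (0.97 ± 0.16) and Pdgfrb (0.92 ± 0.25), both pericyte surface proteins, were among those that rose, while Smtn fell by 0.64 on the log2 scale (SE 0.19); its call was lost without GFP replicate 3 (adjusted p = 0.0531) and with library totals alone (0.0717), where 0 of these markers fell. In male libraries alone 1 of these markers rose, and 2 or 3 rose without GFP replicate 1, 3 or 5 or ATF4 replicate 1 or 4. Tagln, at 0.37 in ATF4 against GFP, was not called. The part of such cells in the Acta2 level was not tested. In RNA from sorted cells, fewer cells of a type and less RNA per cell cannot be told apart.

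**Figure D4:**
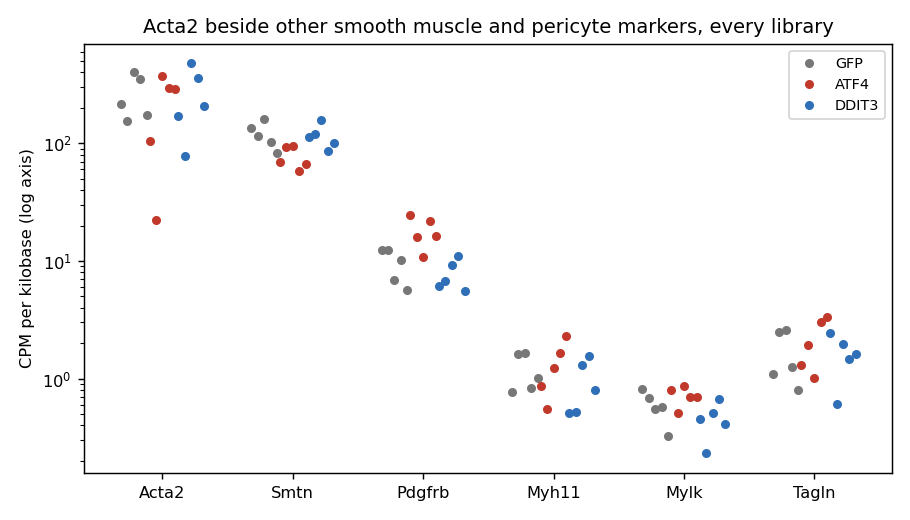
CPM per kilobase (vertical log axis) of Acta2 and 5 smooth muscle or pericyte markers in every library, coloured by vector group. Acta2 lies between 22.4 and 477 CPM per kilobase, and Myh11, Mylk and Tagln lie more than 1 log10 unit below it in each library.

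The cytoskeletal actins were low beside Actc1 and were called in no comparison. By level per length, Actb ranked between 274 and 1354 among all genes of a library and Actg1 between 833 and 4495. Actb measured 247, 206, 153, 281 and 189 CPM in GFP, 236, 148, 391, 265 and 307 CPM in ATF4, and 156, 92.0, 245, 286 and 137 CPM in DDIT3. The 3 groups overlapped. Its log2 fold change was 0.32 ± 0.29 (SE) in ATF4 against GFP (edgeR adjusted p = 0.414), -0.23 ± 0.29 in DDIT3 against GFP (adjusted p = 0.881) and 0.56 ± 0.29 in ATF4 against DDIT3 (adjusted p = 0.151). The last value became 0.77, with an adjusted p of 0.0463, when DDIT3 replicate 4 was left out, and in DDIT3 against GFP the sign turned to 0.03 in male libraries alone. As a share of the actin total per length, Actb was 0.849 ± 0.199% in GFP, 1.11 ± 0.106% in ATF4 and 0.662 ± 0.158% in DDIT3.

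Actg1 measured 75.9, 77.0, 63.1, 40.3 and 23.1 CPM in GFP and 60.5, 130, 69.7, 38.2 and 41.9 CPM in ATF4. In DDIT3 it measured 77.2, 64.9, 87.7, 23.7 and 46.6 CPM. Replicates 4 and 5 lay below replicates 1 to 3 in each of the 3 groups, a pattern noticed after the values were seen. The log2 fold changes were 0.28 ± 0.39 (SE; ATF4 against GFP, edgeR adjusted p = 0.621), 0.10 ± 0.39 (DDIT3 against GFP, adjusted p = 0.974) and 0.18 ± 0.39 (ATF4 against DDIT3, adjusted p = 0.764), and each changed sign in male libraries alone. The ratio of Actb to Actg1 per length was 2.43 to 8.22 in GFP, 1.15 to 7.33 in ATF4 and 1.42 to 12.1 in DDIT3. Its size is uncertain because of the sequence that Actg1 shares with pseudogenes. Actg2, the enteric smooth muscle isoform, had 1 count over the GFP libraries, 4 over the ATF4 and 3 over the DDIT3 libraries, too few for a comparison.

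The promoters of the 2 striated actins are shown because one gene was called with ATF4 and the other was not, although both are textbook SRF targets. These are the 250 bases before the RefSeq start in GRCm38.p6, 5′ to 3′ on the minus strand, chr8:123894776-123895025 for Acta1 and chr2:114052876-114053125 for Actc1. Capitals mark the exact CArG box.
Acta1: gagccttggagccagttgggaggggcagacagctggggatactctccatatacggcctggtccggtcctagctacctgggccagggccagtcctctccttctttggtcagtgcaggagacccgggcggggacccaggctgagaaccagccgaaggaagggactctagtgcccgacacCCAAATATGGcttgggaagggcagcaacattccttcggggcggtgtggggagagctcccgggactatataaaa
Actc1: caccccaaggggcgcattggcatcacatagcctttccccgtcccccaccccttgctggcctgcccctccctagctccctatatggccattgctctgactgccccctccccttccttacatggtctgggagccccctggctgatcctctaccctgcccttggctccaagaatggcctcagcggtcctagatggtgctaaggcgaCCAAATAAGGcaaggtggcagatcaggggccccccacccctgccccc
Each held 1 exact CArG box, 73 to 64 bases before the start in Acta1 and 47 to 38 bases before it in Actc1. Acta1 held 2 further matches with 1 substitution and Actc1 held 3. Only substitutions between the CC and GG ends of the box were searched for. Promoters of 4 of the 6 actins were in the table used. Actg1 had 1 exact box (90 to 81 bases before the start) and Acta2 had none that was exact and 2 with 1 substitution. Over all 32851 promoters, searched on both strands over windows of the same length, 1.47% held an exact CArG box and 8.59% held one with at most 1 such substitution. The core of the composite site of ATF4 and C/EBP factors, TGATGNAA, was in none of the 4 actin windows and in 3.45% of all promoters; no match means only that these letters are not in this window.

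Among the 15 tested regulators of actin transcription, 2 rose and 6 fell in ATF4 against GFP, with a median log2 fold change of -0.30; over all tested genes 16.5% rose and 15.6% fell, and each list below is read beside these shares. Srf itself measured 85.7, 89.8, 97.1, 77.3 and 98.9 CPM in GFP and 53.6, 58.9, 74.0, 57.9 and 79.0 CPM in ATF4. The groups overlapped only through GFP replicate 4 and ATF4 replicate 5. Srf fell by 0.47 on the log2 scale (SE 0.13; edgeR adjusted p = 0.0111), and Myocd, the SRF partner myocardin of heart and smooth muscle, fell by 0.67 (SE 0.17; adjusted p = 0.0054) from a mean of 171 to 108 CPM. The muscle factors Mef2a and Mef2c, the Hippo effector Yap1 and the SRF antagonist Hopx also fell, by 0.30, 0.32, 0.41 and 0.35. Of these falls only that of Myocd was kept when counts were scaled by library totals alone, which moved the median of all genes from 0.02 to 0.18; the adjusted p of Srf was then 0.0501. In male libraries Mef2c (adjusted p = 0.0886), Yap1 (0.233) and Hopx (0.313) were not called. The call of Hopx was also lost without any 1 of 9 libraries, which were GFP replicates 1, 2, 4 and 5, ATF4 replicates 1, 2 and 5 and DDIT3 replicates 1 and 5 (adjusted p = 0.0517 to 0.136), and under both other filters on low counts (0.0506 and 0.0555).

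The 2 regulators that rose were Wwtr1, which encodes the Hippo effector TAZ (0.76 ± 0.11), and Abra, which encodes STARS, an actin-binding activator of MRTF (1.26 ± 0.19). Abra went from a mean of 48.0 to 115 CPM, and its groups did not overlap. The MRTF genes Mkl1 (0.24, adjusted p = 0.431) and Mkl2 (0.37, adjusted p = 0.0514) and the cardiac factors Nkx2-5 (-0.22, adjusted p = 0.0851) and Gata4 (-0.19, adjusted p = 0.117) did not pass the test. Mkl2 passed it under limma-voom, with the replicate block, with scaling by library totals and with the filter of 5 CPM in 5 libraries. It also passed without GFP replicate 5, ATF4 replicate 3, ATF4 replicate 4 or DDIT3 replicate 2 (adjusted p = 0.0069 to 0.0467 over all these settings).

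Targets of SRF and MRTF other than actins were tested in 23 cases. In ATF4 against GFP 9 rose, 3 fell and the median log2 fold change was 0.44. Cnn3 and Ankrd1, counted among those that rose, were not called by edgeR in male libraries (adjusted p = 0.0667 and 0.341). Fhl1, a LIM protein of stressed heart muscle, rose from 119 to 583 CPM (2.30 ± 0.20, adjusted p = 6.8e-08), and Csrp1 (1.33 ± 0.16) and Tgfb1i1 (1.44 ± 0.25), LIM proteins of smooth muscle and focal adhesions, rose from 20.5 to 51.7 and from 8.01 to 21.8 CPM. The 3 that fell were Fhl2 (-1.17 ± 0.28), the muscle LIM protein gene Csrp3 (-0.48 ± 0.12) and the vinculin gene Vcl (-0.38 ± 0.12), whose call was lost without GFP replicate 5 (adjusted p = 0.0563). With library totals alone Vcl was not called, and in male libraries neither Vcl (0.114) nor Csrp3 (0.0618) was, which left 1 that fell; without GFP replicate 3, 5 fell. Tagln and Myl9, smooth muscle targets, had values of 0.37 and -0.16 and were not called.

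Of 21 proteins that bind actin monomers or turn filaments over, 6 rose and 1 fell in ATF4 against GFP, with a median of 0.23. Cap1 and Coro1b, counted among those that rose, were not called by edgeR in male libraries (adjusted p = 0.0617 and 0.259). Cofilin 1 (Cfl1), which severs filaments, rose from 47.7 to 94.4 CPM (0.98 ± 0.15), and Limk2, a kinase that inactivates cofilin (0.48 ± 0.09), Coro1c (0.83 ± 0.17) and the monomer-binding Pfn1 (0.50 ± 0.12) rose too. The member that fell was Pfn2 (-0.66 ± 0.20), and its call was lost without GFP replicate 4 (adjusted p = 0.0523) and in male libraries (-0.35, adjusted p = 0.197), where 0 fell; without GFP replicate 2, or with the replicate block, 2 fell. The cofilin of adult muscle, Cfl2, was at -0.01.

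Among 23 nucleators and elongation factors 10 rose and 4 fell, with a median of 0.10. Some of the rises also depended on the setting. Fhod1 was not called by DESeq2 (adjusted p = 0.0689), and Arpc4 was not called by edgeR without GFP replicate 1 (0.0735). Vasp, which elongates filaments at adhesions (1.03 ± 0.14, from 31.1 to 63.7 CPM), Spire1 (1.65 ± 0.25) and the Arp2/3 subunits Arpc3 (0.59 ± 0.12) and Arpc5 (0.53 ± 0.11) were among those that rose. The 4 that fell were Fhod3 (-0.65 ± 0.11), the cardiac formin, the leiomodins Lmod3 (-0.85 ± 0.18) and Lmod2 (-0.46 ± 0.17), which nucleate and lengthen the thin filament of the sarcomere, and the formin Daam1 (-0.53 ± 0.18). Lmod3 fell from 134 to 74.4 and Fhod3 from 293 to 187 CPM, each with groups that did not overlap. Lmod2 (adjusted p = 0.0478) was not called with library totals alone, with the stricter filter (0.0585) or without any 1 of 10 libraries (0.0502 to 0.118; GFP replicates 1, 2 and 4, ATF4 replicates 1, 3, 4 and 5 and DDIT3 replicates 1, 3 and 4), and Daam1 was not called with library totals alone or without GFP replicate 5, ATF4 replicate 2 or ATF4 replicate 3 (0.0519 to 0.108), nor in male libraries (0.234). Without ATF4 replicate 3 the number that fell was 2.

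At the filament ends and anchors 3 of 16 genes rose and 3 fell (median 0.17), shares near those of all genes (16.5% and 15.6%); with DESeq2, the replicate block or ATF4 replicate 5 left out, 5 fell. Tropomodulins cap the pointed end: Tmod4, the skeletal isoform, fell (-1.47 ± 0.18, from 19.7 to 7.11 CPM) and so did the cardiac isoform Tmod1 (-0.51 ± 0.10), while the widely expressed Tmod3 rose (0.52 ± 0.18). The Tmod3 call was lost without GFP replicate 3 or 5 or ATF4 replicate 4 or 5 (adjusted p = 0.0546 to 0.0993) and in male libraries (0.0927). Xirp2, an intercalated disc protein, rose (1.21 ± 0.19, from 152 to 353 CPM), as did the non-muscle α-actinin Actn4 (0.91 ± 0.19). The barbed-end capping subunit Capza2 fell (-0.43 ± 0.13), a call lost with library totals alone, without GFP replicate 5 (adjusted p = 0.0508), without ATF4 replicate 1 (0.0515) and in male libraries (0.222). Sarcomeric α-actinin, Actn2, was at -0.02.

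Actin is folded by prefoldin and the CCT chaperonin and its amino terminus is then processed. Of 16 such genes 2 rose, 1 fell and the median was 0.04, shares no larger than those of all genes (16.5% and 15.6%); with the replicate block 6 rose and 2 fell. Nat6 (Naa80), the enzyme that acetylates the actin amino terminus, rose (1.05 ± 0.16, from 21.3 to 44.2 CPM), but it overlaps Hyal1 and Hyal3 on the same strand, so its reads are uncertain. The chaperonin subunit Cct2 rose (0.45 ± 0.10) and the prefoldin subunit Pfdn1 was called lower (-0.43 ± 0.14), a call that was lost without GFP replicate 2 or 4 or ATF4 replicate 1, 2 or 5 (adjusted p = 0.0542 to 0.0698), with library totals alone (0.104) and in male libraries (0.159). Without ATF4 replicate 2 the number that rose was 4. Of 8 actin-like and actin-related genes tested, Actr1a, the filament of dynactin, rose (0.40 ± 0.09) and Actr3b fell (-0.44 ± 0.13, lost with library totals alone).

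In DDIT3 against GFP edgeR called 0 of the 122 genes tested in the 7 lists above, 6 had an unadjusted p below 0.05, where over all genes 0.863% were called and 9.71% had such a p, and list medians lay between -0.08 (monomer binding and turnover) and 0.09 (folding). DESeq2 called 2 of them, the nucleator Cobl and Tmod4 (-0.60 ± 0.17 by edgeR), limma-voom called 0, and the fit with the replicate block called 1, Cobl. The direct comparison of ATF4 with DDIT3 gave 3 higher and 5 lower among 15 regulators, and 9 and 3 among 23 SRF and MRTF targets. It gave 6 and 0 among 21 turnover genes and 9 and 4 among 23 nucleators. At filament ends the counts were 3 and 4 of 16 genes, and among folding genes 2 and 2 of 16. Over all tested genes 17.8% were higher and 16% lower in this comparison, and these counts are read beside those shares. With the replicate block 3 turnover genes were lower, not 0, and 5 folding genes were higher, not 2.

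**Figure D5:**
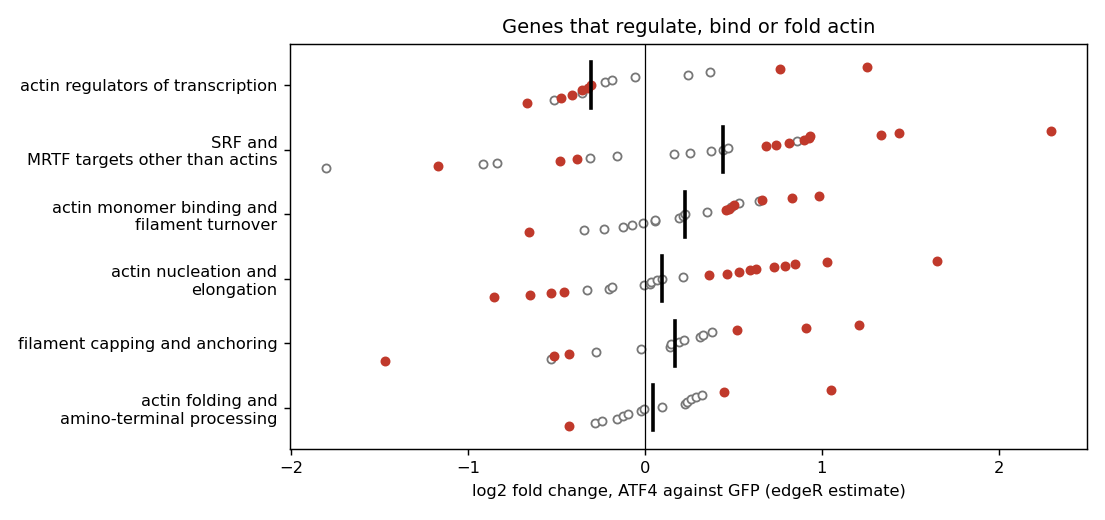
Log2 fold change in ATF4 against GFP (horizontal axis) of the tested genes in 6 lists around actin; filled points were called at an adjusted p below 0.05, open points were not, and vertical bars are list medians. The medians lie between -0.30 (regulators of transcription) and 0.44 (SRF and MRTF targets), beside 0.02 over all genes.

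Several of these genes are also abundant in other cells of the heart. Of 13 endothelial markers 12 rose in ATF4 against GFP (median 0.85; Robo4 0.82, Eng 0.85 and Tie1 0.91), and their summed level was 507 to 1009 CPM in GFP, 1169 to 1685 in ATF4 and 494 to 830 in DDIT3. Of 12 fibroblast markers 3 rose and 1 fell (summed 417 to 927, 538 to 1138 and 347 to 645 CPM). The 9 leukocyte markers in the table summed to 11.3 to 27.9 CPM over all libraries, and 0 of 6 tested were called by edgeR, DESeq2 or limma-voom, with 0 at an unadjusted p below 0.05. Of 12 cardiomyocyte markers 7 fell and none rose (median -0.46, with Pln at -0.75, Myl3 at -0.82 and Atp2a2 at -0.79). They summed to 128840 to 172112 CPM in GFP, 101953 to 114217 in ATF4 and 130061 to 146036 in DDIT3. Every ATF4 library thus lay below every library of the other groups in this sum. The part of endothelial RNA in the cytoskeletal and SRF target groups was not tested.

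Markers of skeletal muscle, the tissue in which Acta1 is the main actin, were close to absent. Of 17 such genes 8 to 12 had no count in a given library, Myh1, Myf5 and Pax7 had none in any library, and the fast myosin Myh4 had 2 counts over the ATF4 libraries and 0 over the GFP libraries. The 17 genes summed to 18.1 to 43.1 CPM in GFP, 30.5 to 88.4 in ATF4 and 13.1 to 20.1 in DDIT3, most of it Myl1, the fast skeletal light chain (1.43 ± 0.28, from 20.1 to 54.2 CPM). The fast troponin Tnni2, the other member tested, fell (-2.74 ± 0.48). Acta1 alone averaged 1107 CPM in the ATF4 libraries.

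Acta1 is one of several thin and thick filament genes with a fetal and an adult form, and 9 other genes of the fetal programme were examined. Not all of the 9 are filament genes, since Nppa and Xirp2 are among them. In ATF4 against GFP 4 rose, 1 fell and the median was 0.93. Slow skeletal troponin I, Tnni1, rose from 1.51 to 7.97 CPM (2.39 ± 0.32, adjusted p = 1.9e-05), Xirp2 as given above, the natriuretic peptide gene Nppa from 290 to 760 CPM (1.39 ± 0.37) and Ankrd1 by 0.93 ± 0.32. The Ankrd1 call (adjusted p = 0.0391) was lost in male libraries (0.341), with no filter (0.0880), without both replicates 2 (0.0923) and without any 1 of 8 libraries (GFP replicates 1, 3, 4 and 5 and ATF4 replicates 1, 2, 4 and 5; 0.0554 to 0.0895). Slow troponin T, Tnnt1, fell (-1.03 ± 0.16). Myh7, the fetal myosin heavy chain, had 4006 CPM in ATF4 replicate 2 and 557 CPM at most in GFP, and its value of 1.86 ± 0.80 was not called (adjusted p = 0.0929; 0.0392 without ATF4 replicate 4). Its adult partner Myh6, at -0.35 ± 0.14, was not called by edgeR with all libraries (adjusted p = 0.0550). It was called by DESeq2 (0.0434), with median-of-ratios factors (0.0497), without GFP replicate 2 (0.0152), without ATF4 replicate 2 (0.0204) and without both replicates 2 of ATF4 and DDIT3 (0.0237). The library with the most Myh7, ATF4 replicate 2, was thus the one with the least Acta1 of its group. With DDIT3 edgeR called 0 of the 9 against GFP (median 0.21) and 2 had an unadjusted p below 0.05, while DESeq2, limma-voom and the replicate block each called 1, Nppa. The Nppa level in DDIT3 averaged 872 CPM (468 to 1416), above its mean of 760 CPM in ATF4.

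The genes whose profile over the 15 libraries lay closest to that of Acta1 were Isg20, an RNA exonuclease, Tmem144, a transmembrane protein, and Abca8b, a lipid transporter. Likeness was the root mean square difference in centred log2 CPM, which was 0.403, 0.411 and 0.470, beside a median of 1.44 over all tested genes and a standard deviation of 1.42 for Acta1 itself. Mean levels in GFP, ATF4 and DDIT3 were 23.5, 128 and 16.3 CPM for Tmem144. They were 2.83, 15.8 and 1.79 CPM for Abca8b and 0.989, 6.28 and 0.512 CPM for Isg20.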

How the data were processed

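Whole-number read counts per gene, as the authors deposited them, gave every result not credited to their tables. The submitters' processing notes name mm10, STAR, featureCounts, DESeq and DESeq2, whose versions are not given in the sources used here. Levels per kilobase use the gene length column (other unit) as deposited. The authors' own 2 tables hold, per the file headers, a mean normalised count (signal), log2 fold changes and their errors, a Wald score and p-values. They were used only where named.

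Sample titles gave the groups and the replicate numbers. The labels name no animals, so p-values measure the spread between these libraries, none of which was a copy of another (chi-square per degree of freedom 8.60 to 50.4 over genes with at least 20 counts). SMART-Seq3 is named for GFP replicate 5 and SMART-Seq2 for the rest. Counts were tested with edgeR 4.0.16 in R 4.3.3 (quasi-likelihood, robust, TMM factors, filterByExpr, 15 libraries in 1 fit with the group as the only term, Benjamini-Hochberg adjustment over 11814 genes, threshold 0.05). The script was tested on simulated data. limma 3.58.1 and DESeq2 1.42.0 served as alternatives, with other scalings and filters, a replicate block, libraries left out and male libraries alone. CPM use TMM factors. Lists were described by counts and medians. Deviations of same-numbered libraries from their group means correlated positively in all 5 pairs of each comparison. The r was 0.205 to 0.511 for DDIT3 and GFP, 0.135 to 0.497 for ATF4 and DDIT3 and 0.0783 to 0.386 for ATF4 and GFP. The same number was the best match in all 5 pairs of DDIT3 and GFP, and in 4 of 5 pairs in each of the other 2 comparisons. Pairing by number is thus read from the data alone, since no label says what a number marks.

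The members and lists were chosen with earlier results of these data known. Named are the actins, Atf4 and Ddit3, 9 regulators and markers whatever their test (Srf, Myocd, Mkl1, Mkl2, Nkx2-5, Gata4, Myh6, Myh7, Tagln), up to 3 called members of each list with the lowest p, and the 3 genes most like a called actin, with provisional symbols passed over. Other list members were named after their values were seen. Atrial markers were a further list: 1 of 9 tested (Nppa) rose and 2 (Kcnj3, Stard10) fell with ATF4, and 1 (Stard10) rose with DDIT3. Of the lists, Fbln1 was the other gene called with DDIT3, at -0.88. Promoters came from RefSeq and transcripts from GENCODE M21.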

Additional observations from a re-analysis of the deposited data

How the results depend on the processing

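The rise of Acta1 with ATF4 was called in all 25 alternatives against GFP (2.27 to 2.66) and against DDIT3 (2.97 to 3.35), and its difference between DDIT3 and GFP in none (-0.90 to -0.56, adjusted p 0.126 to 0.771). With the replicate block Acta1 was 2.36 ± 0.37 (adjusted p = 6.9e-04) for ATF4 and -0.74 ± 0.36 (0.364) for DDIT3, each against GFP, and 3.10 ± 0.38 (1.3e-04) between ATF4 and DDIT3, and the block changed no actin's call. Genes called numbered 102 in DDIT3 against GFP but 322 with the block, 223 with DESeq2, 65 with the filter of 5 CPM in 5 libraries and 55 to 146 with single libraries left out (55 without DDIT3 replicate 1; 61 to 65 without GFP replicate 1, 3 or 4 or DDIT3 replicate 2 or 3). In the other 2 comparisons they were 3801 (2972 to 5097; 5097 with the block) and 3997 (3380 to 5228; 5228 with the block). With library totals alone the share of called genes that were higher was 72.2% (ATF4 against GFP), 68.9% (the same for DDIT3) and 67.8% (ATF4 against DDIT3), where TMM gave 51.4, 60.8 and 52.7%.

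Signs of actins that were not called turned in 31 of 325 fits. In ATF4 against GFP, Actc1 was 0.0014 with library totals alone, 0.0236 without both replicates 2 and 0.0348 in male libraries. Acta2 was 0.0374 and 0.0460 in the last 2 settings and Actg1 -0.0920 and -0.457. In DDIT3 against GFP, Acta2 was 0.0269 with library totals, 0.225 without both replicates 2 and 0.234 in males, where Actb was 0.0293 and Actg1 -0.290. In ATF4 against DDIT3, Actg1 was -0.165 without both replicates 2 and -0.167 in males. With single libraries left out, Actc1 ranged from -0.278 to 0.0244 and from -0.00996 to 0.190 against GFP in ATF4 and DDIT3. Acta2 ranged from -0.540 to 0.0383, -0.354 to 0.224 and -0.531 to 0.0995 in the 3 comparisons, Actg1 from -0.0911 to 0.427, -0.0934 to 0.305 and -0.193 to 0.351, and Actb in ATF4 against DDIT3 from 0.381 to 0.772. The cause of these sign changes was not tested. Apart from library totals alone, the settings named here used fewer libraries. Of the 76 other genes named or called around actin in ATF4 against GFP, 53 were called in every alternative.

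Counts of list members moved in ATF4 against GFP for folding genes that rose (2 as reported, 6 with the block and in males, 7 with library totals), regulators that fell (6, and 1 with library totals) and smooth muscle and pericyte markers that rose (6, and 1 in males), among others. Depth limits Actg2, and the spread between libraries limits Acta2.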
